A study of Mus musculus with 73 samples.

Results

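*Sox2*_E180, *Nodal*_E159, *Nanog*_E074 and *Nanog*_E064 are 4 enhancer fragments of mouse embryonic stem cells (mESCs) that strongly raised the activity of developmental promoters but left the *Ap1m1* promoter almost at its baseline. The combinations described here place one of these 4 fragments, called anchors below, next to an enhancer of another locus. They came from a reporter assay in which a pair of enhancers and a promoter share one plasmid, and they number 9588 of the 110180 combinations in the table. The anchors were chosen by measured values of the same table: a high activity beside a control fragment on the 7 developmental promoters and a low one on *Ap1m1*. Those single-enhancer values are therefore given as a description, with no test. Of the 9588 combinations, 9587 were above 0 in all 3 replicates. For 9467 of these the activity of both enhancers alone was known, so that an expected activity could be set beside the observed one. *Sox2*_E180 was part of 2166 combinations, *Nodal*_E159 of 2439, *Nanog*_E074 of 2155 and *Nanog*_E064 of 3096, and 269 combinations joined 2 anchors.

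All cells were E14tg2a, a male mESC line grown in 2i medium with LIF, and no group received another treatment. Each of 8 plasmid libraries carried one promoter, that of *Sox2*, *Klf2*, *Otx2*, *Fgf5*, *Lefty1*, *Nanog*, *Ap1m1* or *Tbx3*, upstream of a barcoded reporter, with the pair of fragments downstream of it. Cells were nucleofected in 3 biological replicates per library and collected after 24 h, and the plasmids remained episomal, so that fragments were tested outside their chromosomal context. Activity is the ratio of a barcode's reads in cDNA to its reads in the plasmid pool.

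An enhancer is a stretch of DNA, bound by transcription factors, that raises the output of a promoter from a distance. In mESCs the factors encoded by *Pou5f1*, *Sox2* and *Nanog* bind many enhancers of the genes that keep these cells pluripotent, their own genes included. *Klf2* and *Tbx3* encode transcription factors of the naive state, *Otx2* and *Fgf5* are switched on as cells leave it, and *Nodal* and *Lefty1* encode a signalling ligand and its inhibitor. *Ap1m1*, which encodes a subunit of a vesicle adaptor complex, served as the housekeeping promoter. When a pair of enhancers acts independently on a promoter, the plain expectation is additive: the gains of the single enhancers over the baseline sum.

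The 4 anchors come from 3 loci. Coordinates (mm10) are those of the 450 bp windows that the study selected. The cloned PCR products were shorter, because the primers lay inside the ends of these windows. *Sox2*_E180 spans chr3:34757763-34758212, in the region known as the *Sox2* control region, 105.3 kb from the *Sox2* gene and outside any protein-coding gene. *Nodal*_E159 spans chr10:61415836-61416285 and lies 1.7 kb from *Nodal*. *Nanog*_E074 spans chr6:122702830-122703279, 4.2 kb from *Nanog*, and *Nanog*_E064 spans chr6:122662794-122663243, with *Dppa3* as the nearest protein-coding gene at 32.5 kb. None of the 4 overlaps a protein-coding gene of the RefSeq annotation of GRCm38.p6. The selected window of *Nanog*_E074 shares 66 bp with that of its neighbour *Nanog*_E073, a fragment that was active on *Ap1m1*. The window of *Nodal*_E159 shares 100 bp with that of *Nodal*_E160. Both overlaps are upper limits for the cloned products. The fragments were cloned by PCR, and the primers below, which bound each of them, are shown because they define what was cloned. Capitals mark the 11 bases at which the reverse primer of *Nodal*_E159 and the forward primer of the adjoining *Nodal*_E160 match on opposite strands.
Sox2_E180 forward: tttaagtttgccttgtgagctcagg
Sox2_E180 reverse: cggtattaaagtctccttcacaagacc
Nodal_E159 forward: tccttgttccctacactataagcatcc
Nodal_E159 reverse: ttgaaccagCGGTCTCCTGC
Nodal_E160 forward: tttacttagcacGCAGGAGACCG
Nanog_E074 forward: ccctgtaccaaacctttgtagaacttg
Nanog_E074 reverse: ggatacaaagcccagcaaactacc
Nanog_E064 forward: ctcagcaccctcacctctctc
Nanog_E064 reverse: cttgtttctagcgagtggattgtctc

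RefSeq promoter windows (GRCm38.p6) were held for 5 of the 8 promoters. Those of *Fgf5* and *Nanog* lie wholly within the genomic intervals that the study selected for these promoters. They are shown because these promoters gave the highest and the lowest median of observed over expected activity among the anchored combinations. The *Fgf5* window is chr5:98253934-98254233 and the *Nanog* window chr6:122707239-122707538, both on the plus strand. Both strands were searched for words recognised by POU (ATTTGCA), SOX (CATTGTT), ESRRB (AAGGTCA), KLF (GGGTGTG), TEAD (GGAATG) and STAT factors (TTCCNGGAA). The capitals in the *Fgf5* window mark the only match in either sequence, a KLF word on the minus strand that also occurs in 7.95% of 32851 promoter windows of the same length. Absence of a match says only that these letters are not in the window.
Fgf5: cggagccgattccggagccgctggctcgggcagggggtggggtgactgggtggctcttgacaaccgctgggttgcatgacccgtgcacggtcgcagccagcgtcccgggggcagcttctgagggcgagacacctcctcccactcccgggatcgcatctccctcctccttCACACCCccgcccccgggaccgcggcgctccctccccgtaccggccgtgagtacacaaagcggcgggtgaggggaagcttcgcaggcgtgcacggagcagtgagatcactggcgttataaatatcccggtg
Nanog: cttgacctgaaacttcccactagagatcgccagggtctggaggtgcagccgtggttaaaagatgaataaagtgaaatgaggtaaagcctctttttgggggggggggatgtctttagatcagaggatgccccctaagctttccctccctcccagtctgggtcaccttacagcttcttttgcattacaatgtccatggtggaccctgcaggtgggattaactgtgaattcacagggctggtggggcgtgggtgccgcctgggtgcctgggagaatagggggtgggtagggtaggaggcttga

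The anchored combinations formed 199 enhancer pairs, most of them measured in several orders and orientations, with a median of 6 to 8 combinations per pair and library. Within the libraries, replicates of the anchored combinations correlated with Pearson's r from 0.58 to 0.90 on the log2 scale across combinations, which are not independent of each other because they share fragments. The median SD over the 3 replicates was 0.14 to 0.22 on that scale and was highest in the *Fgf5* library. The baseline of that library rested on 23 control-control combinations, against 219 to 477 in the others. The table gives ratios and no read counts, so the depth behind each ratio is unknown.

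Alone, each anchor raised the developmental promoters and barely moved *Ap1m1*, which is how it was chosen. The boost index, the log2 of activity over the control-control baseline, was 4.20 ± 0.07 (SD, n = 3) for *Sox2*_E180 on the *Sox2* promoter and 4.75 ± 0.15 on *Lefty1*, an 18.3-fold and a 26.9-fold gain. It was 3.65 ± 0.40 on *Fgf5* and 4.21 ± 0.46 on *Tbx3*. On the *Klf2*, *Otx2* and *Nanog* promoters the same fragment reached 1.71, 1.68 and 2.05, and on *Ap1m1* 0.21 ± 0.27, with replicate values of -0.03, 0.51 and 0.27. The *Ap1m1* value is thus no larger than its own replicate spread. On *Ap1m1* *Nodal*_E159 stood at 0.37 ± 0.21, *Nanog*_E074 at 0.26 ± 0.18 and *Nanog*_E064 at 0.32 ± 0.10. Averaged over the developmental promoters, the 4 anchors ranked 3, 5, 8 and 10 among 58 enhancers, and on *Ap1m1* 47, 35, 44 and 37 among 57. Just outside the choice, *Nanog*_E090 ranked 9 on the developmental promoters and 4 on *Ap1m1*, *Lefty1*_E094 ranked 11 and 2, and *Sox2*_E183 ranked 12 and 36. *Nanog*_E064 was the weakest of the 4 on every developmental promoter, with boost indices of 3.57 on *Sox2* and 1.36 on *Klf2*.

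In pairs, an anchor carried its partner to a high level on the developmental promoters and added almost nothing on *Ap1m1*. Over all anchors, the median of a combination over its partner alone was 2.62 ± 0.08 on the log2 scale (SD, n = 3 replicates) on the *Sox2* promoter, 3.14 ± 0.18 on *Fgf5*, 2.94 ± 0.09 on *Lefty1* and 2.68 ± 0.17 on *Tbx3*, gains of 6.15- to 8.81-fold. The *Klf2*, *Otx2* and *Nanog* promoters stood apart from these 4, with gains of 1.02 ± 0.12, 1.02 ± 0.16 and 1.03 ± 0.20. On *Ap1m1* the median gain was 0.09 ± 0.16, or 1.07-fold, which is within the replicate SD. Split by anchor, the *Ap1m1* gain was 0.30 ± 0.11 for *Nanog*_E064, 0.03 ± 0.19 for *Nodal*_E159, 0.00 ± 0.23 for *Sox2*_E180 and -0.03 ± 0.15 for *Nanog*_E074. *Pou5f1*_E081, *Klf2*_E058 and *Nanog*_E073, which ranked 1, 2 and 4 on the developmental promoters, gave gains of 0.51, 0.30 and 0.47 on *Ap1m1* in pairs without an anchor. Of the pairs of an anchor with a non-anchor partner, 92.6 to 98.4% exceeded the partner alone on each developmental promoter and 63.5% did so on *Ap1m1*. This difference between promoters follows the contrast that chose the anchors and has no test.

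On the developmental promoters the level of an anchored pair rose little with the boost index of the partner next to the anchor. On the *Sox2* promoter, partners alone spread from 0.54 to 3.76 in boost index between the 10th and the 90th percentile, whereas the pairs spread only from 3.83 to 4.50. The SD over pairs was 0.27 there, against 1.18 for the partners alone. On *Lefty1* the SD fell from 1.25 for the partners alone to 0.45 for the pairs, and on *Klf2* from 0.52 to 0.32. On *Ap1m1* the SD was 0.31 for the partners alone and 0.32 for the pairs. Pairs on *Klf2*, *Otx2* and *Nanog* spread about as much (SD 0.32, 0.31 and 0.32), and those on *Lefty1*, *Fgf5* and *Tbx3* more (0.45, 0.40 and 0.39). Across pairs, the boost index rose by 0.69 per unit of the partner's own boost index on *Ap1m1* (Pearson's r = 0.67, 192 pairs), and by 0.08 to 0.29 on the developmental promoters (r = 0.34 to 0.52). These correlations describe pairs that share fragments, a library and a baseline. The anchors were chosen as strong on the developmental promoters and near the baseline on *Ap1m1*, so the contrast between promoters follows from that choice and is a description.

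Against the additive expectation, the pooled anchored combinations fell short on *Klf2*, *Otx2*, *Nanog* and *Ap1m1* and lay at or above it on the other 4 promoters. The median log2 of observed over expected activity was -0.14 ± 0.03 on *Klf2*, -0.14 ± 0.04 on *Otx2*, -0.21 ± 0.05 on *Nanog* and -0.13 ± 0.03 on *Ap1m1* (SD, n = 3), and all 3 replicates lay below 0 on each of these. On *Fgf5* it was 0.20 ± 0.10 and on *Tbx3* 0.09 ± 0.03, with all 3 replicates above 0. The *Sox2* and *Lefty1* medians, 0.02 ± 0.05 and 0.04 ± 0.05, were within their replicate SD of 0. In every library the spread over combinations was wider than these shifts, with the 10th percentile at or below -0.52 and the 90th at or above 0.24. *Nanog*_E064 did not share the shortfall, with medians of 0.05 ± 0.04 on *Klf2*, 0.03 ± 0.05 on *Otx2*, -0.05 ± 0.04 on *Nanog* and 0.04 ± 0.04 on *Ap1m1*. *Sox2*_E180, *Nodal*_E159 and *Nanog*_E074 stood between -0.14 and -0.39 on these promoters.

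Pooled over the anchors, sub-additive calls were more frequent and supra-additive calls rarer than among all enhancer pairs tested, but *Nanog*_E064 went the other way. Of 1491 anchored pairs tested over the 8 promoters with limma at 5% FDR, 253 were supra-additive (17.0%) and 486 sub-additive (32.6%), against 28.3% and 15.4% of all 10993 pairs. Without replicate 1 or replicate 2 the supra-additive count was 104 or 100, and without replicate 1 the sub-additive count was 306. Split by anchor, 36.5% of the tests of *Nanog*_E064 were supra-additive and 13.3% sub-additive. These shares were 12.2% and 35.9% for *Sox2*_E180, 8.33% and 44.2% for *Nodal*_E159, and 8.19% and 44.4% for *Nanog*_E074. On *Ap1m1* 6 of 197 anchored pairs were supra-additive, against 7.71% of all pairs there, and 84 were sub-additive, against 22.3%. On the *Nanog* promoter the counts were 18 and 101 of 195 pairs, against 15.4% and 26.7%. On *Klf2* they were 29 and 80 of 188, against 14.7% and 20.4%, and on *Otx2* 22 and 85 of 186, against 13.9% and 23.7%. The pooled share of supra-additive pairs on *Klf2* was thus close to that of all pairs, with 14 of the 29 from *Nanog*_E064. The promoters with the widest range showed the same direction when the anchors were pooled. On *Sox2* 31 of 167 anchored pairs were supra-additive and 35 sub-additive, against 43.9% and 7.86% of all pairs. On *Lefty1* the counts were 66 and 47 of 198, against 50.1% and 9.11%, and on *Tbx3* 62 and 42 of 194, against 51.7% and 6.61%. On *Fgf5*, where few pairs passed, they were 19 and 12 of 166, against 31.8% and 1.52%. The expectation contains the single-enhancer medians that chose the anchors, and choosing high medians on the developmental promoters raises it. There the difference from all pairs was partly set by the choice, so these shares are a description.

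Relative to the additive expectation, the anchored combinations lay lower than other cross-locus pairs on every promoter. On *Sox2*, *Fgf5*, *Lefty1* and *Tbx3* both medians were nevertheless above 0. The difference of medians averaged -0.21 ± 0.03 on the log2 scale (SD over replicates) and ranged from -0.46 on *Fgf5* to -0.12, with all 8 promoters below 0 (exact permutation test by sign flips over the promoters, two-sided p = 0.00781, the smallest this design gives, adjusted p = 0.00977 over 5 comparisons). *Nodal*_E159 stood lowest at -0.38 ± 0.06, followed by *Nanog*_E074 at -0.30 ± 0.03 and *Sox2*_E180 at -0.27 ± 0.04, each below 0 on 8 of 8 promoters with the same exact adjusted p of 0.00977. *Nanog*_E064 did not differ detectably from other pairs: its mean difference was -0.03 ± 0.02, above 0 on 5 of 8 promoters (exact adjusted p = 0.719), and 0.0087 without the *Fgf5* library. This fragment had the highest median of the 4 anchors on all 8 promoters, from -0.05 on *Nanog* to 0.34 on *Fgf5*. Its difference from the other anchors was not tested. The expectation contains the same single-enhancer medians that chose the anchors, and choosing high medians raises it. The direction was thus partly set by the choice, and these p-values cannot show a trait of the anchors. The 8 libraries also share their fragments. Strong enhancers that are not anchors lay low as well. Their medians averaged -0.06 for *Pou5f1*_E081, -0.13 for *Klf2*_E058 and -0.05 for *Nanog*_E073, which had no value on *Fgf5*, against 0.18 for other cross-locus pairs.

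*Pou5f1*_E081, *Klf2*_E058 and *Nanog*_E073 are strong enhancers that were more active on *Ap1m1*, and they too were picked by their single-enhancer values. With the same partners, anchored pairs lay above pairs of *Pou5f1*_E081, *Klf2*_E058 and *Nanog*_E073 by 0.058 ± 0.0049 on average, from 0.01 on *Ap1m1* to 0.20 on *Fgf5*, and above 0 on 8 of 8 promoters (exact sign-flip permutation test, two-sided p = 0.00781). Without the *Fgf5* library, where *Nanog*_E073 had no single-enhancer value, the mean was 0.037. Split by anchor, with no test, the difference was 0.24 ± 0.02 for *Nanog*_E064 (SD over replicates), above 0 on 8 of 8 promoters. It was 0.01 ± 0.01 for *Sox2*_E180, -0.02 ± 0.02 for *Nodal*_E159 and -0.06 ± 0.01 for *Nanog*_E074, above 0 on 3, 1 and 1 of 8 promoters. The pooled difference above 0 thus rested mainly on *Nanog*_E064. The single-enhancer values that picked both sets are also part of the expectation. The p-value of the pooled difference therefore cannot show a trait of the anchors as a set. The difference between the anchors was not tested.

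Pairs of 2 anchors among *Sox2*_E180, *Nodal*_E159 and *Nanog*_E074 fell far short of the additive expectation. *Sox2*_E180, *Nodal*_E159 and *Nanog*_E074 reached in pairs only 0.49-, 0.47- and 0.48-fold of the additive expectation on average over the promoters, for *Nanog*_E074 with *Nodal*_E159, *Nanog*_E074 with *Sox2*_E180 and *Nodal*_E159 with *Sox2*_E180, respectively. All 3 pairs were called sub-additive on 8 of 8 promoters by limma. They also fell below the stronger of their own members: *Nanog*_E074 with *Sox2*_E180 was called below it on 7 of 8 promoters, *Nodal*_E159 with *Sox2*_E180 on 6 and *Nanog*_E074 with *Nodal*_E159 on 5. In the 3 pairs, 48 of 51, 34 of 41 and 52 of 60 combinations lay below the stronger single enhancer.

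Replicate values show the size of this loss. On the *Nanog* promoter, *Nanog*_E074 with *Nodal*_E159 reached boost indices of 0.85, 1.73 and 1.05 in the 3 replicates (mean 1.25 ± 0.47 SD), whereas the single enhancers stood at 1.80 and 1.87. Relative to the stronger single of the same replicate the pair stood at -0.76, -0.45 and -0.61 (limma adjusted p = 0.00139), and all of its 8 combinations lay below it. On the *Sox2* promoter *Nodal*_E159 with *Sox2*_E180 reached 3.67, 3.78 and 3.58, below 3.99 and 4.20 for the single enhancers. Its 4 combinations there, which differ in order and orientation, ranged only from 3.53 to 3.73. On *Ap1m1* *Nanog*_E074 with *Sox2*_E180 averaged -0.08 ± 0.28, near the baseline, against 0.26 and 0.21 alone, and was sub-additive by -0.54 (limma adjusted p = 0.00372). The *Fgf5* promoter was the mildest case, where these 3 pairs stood at -0.01, -0.16 and -0.08 relative to the stronger single enhancer and none was called below it. The -0.01 of *Nanog*_E074 with *Nodal*_E159 joins unlike orders. Its combinations ranged from -0.87 to -0.03 with *Nanog*_E074 first and from -0.03 to 0.83 with *Nodal*_E159 first. This pair had a boost index of 3.65 there, against 3.34 and 3.92 for the single enhancers over both positions. *Nodal*_E159 alone rested on 8 combinations on *Fgf5*.

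*Nanog*_E064 again behaved differently. Joined to *Nodal*_E159 it reached 0.78-fold of the expectation and joined to *Sox2*_E180 0.72-fold, and neither pair was called below the stronger single on any of the 8 promoters. The 2 pairs stood at 0.19 and 0.07 relative to the stronger single on average and were called above it on 3 promoters and 1 promoter. In total 37 of the 40 tests of 2 anchors were sub-additive and none was supra-additive. Of all anchored tests these shares were 32.6% and 17.0%, and of all pairs tested 15.4% and 28.3%. For scale, *Klf2*_E058 with *Pou5f1*_E081, the strongest pair of enhancers by single values, averaged -0.80 against the expectation and -0.07 against the stronger single. It was sub-additive on 8 of 8 promoters and called below the stronger single on 3. *Nanog*_E073 with *Pou5f1*_E081 and with *Klf2*_E058 was sub-additive on 7 of 7 promoters and called below on none. Frequent sub-additive calls were thus not particular to pairs of anchors.

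Among partners that are not anchors, the shortfall was deepest for the strongest. Within each promoter, pairs were split into 4 equal groups by the partner's own boost index. On the *Sox2* promoter the group with the strongest partners had a median of -0.44 ± 0.16 against the additive expectation (SD over replicates), and the other groups lay between 0.00 and 0.12. On *Klf2*, *Otx2* and *Nanog* the strongest group stood at -0.39, -0.35 and -0.47, but the weakest group was also below 0 at -0.15, -0.16 and -0.22, with the middle groups nearest to the expectation. *Ap1m1* gave -0.19, -0.14, -0.12 and -0.25 from the weakest to the strongest group. Because the partner's value is part of the expectation, these medians are a description.

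*Pou5f1*_E084 (chr17:35509279-35509728, within the *Pou5f1* gene) was weak alone, and its pairs lay below the anchor on every promoter. Its own boost index was 1.62 on *Sox2*, 1.28 on *Lefty1*, -0.02 on *Klf2* and -0.59 on *Ap1m1*. With *Nodal*_E159 on the *Otx2* promoter the replicates read 0.38, 0.65 and 1.18, where the anchor alone stood at 1.75. All 32 of its tests with the 4 anchors lay below the stronger single enhancer, from -0.97 to -0.20, and 30 were called below it (limma, 5% FDR). Of all anchored tests 13.7% were called below, and this partner was picked after its values were seen. On average these pairs kept 0.65-fold of the stronger single's activity. With *Nanog*_E074 and with *Sox2*_E180 it was called below on 8 of 8 promoters, the only pairs of all 199 for which this held.

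Over all partners, 204 anchored pairs of 1491 tested were called below the stronger single and 601 above it, against 6.88% and 56% of the 11024 tests of all pairs. Without replicate 1 the count below was 130, and without replicate 2 the count above was 395. *Nanog*_E064 went the other way from the pooled shares, with 72.7% of its 392 tests above and 2.55% below. For *Sox2*_E180, *Nodal*_E159 and *Nanog*_E074, 33.7%, 23.5% and 26.9% were above and 14.7%, 19.7% and 21.9% below. Of the 199 pairs, 6 were called below on at least 7 of 8 promoters. In addition to *Pou5f1*_E084 with each of the 4 anchors, these were *Nanog*_E074 with *Sox2*_E180 and *Nanog*_E074 with *Klf2*_E058. *Klf2*_E058 (chr8:72316077-72316526, 2.5 kb from *Klf2*) and *Pou5f1*_E081 (chr17:35503887-35504336, 1.7 kb from *Pou5f1*, in the region of its distal enhancer) were strong alone. *Klf2*_E058 was sub-additive with the anchors in 29 of 32 tests and *Pou5f1*_E081 in 28, against 32.6% of all anchored tests. The mean of *Klf2*_E058 against the expectation was -1.14 with *Nodal*_E159, the lowest of all partners of that anchor, and -1.03 with *Nanog*_E074.

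Calls were repeated across promoters. Of the 199 pairs, 80 were sub-additive on at least 3 promoters and 41 supra-additive on at least 3, while 19 were called in both directions on different promoters. Of all 1597 pairs tested, 16% were sub-additive and 34.9% supra-additive on at least 3 promoters, and of the 1236 other cross-locus pairs 11.4% and 37.6%, against 40.2% and 20.6% of the anchored ones. The median pair was tested on 8 promoters in each of these sets. The choice of the anchors by their single-enhancer values partly set the difference of the anchored pairs from the others. The 9 pairs that were sub-additive on all 8 promoters were the 3 pairs among *Sox2*_E180, *Nodal*_E159 and *Nanog*_E074, *Klf2*_E058 with *Nanog*_E074 and *Nodal*_E159, *Pou5f1*_E081 with *Nanog*_E074 and *Sox2*_E180, *Pou5f1*_E084 with *Nanog*_E074, and *Otx2*_E111 with *Sox2*_E180. Of the 41 repeatedly supra-additive pairs, 27 held *Nanog*_E064.

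The highest means against the expectation came from a small set of partners of modest strength on the developmental promoters, ranked 20 to 40 among 58. On *Ap1m1* alone, *Tbx3*_E203, *Pou5f1*_E083 and *Otx2*_E114 ranked 3, 7 and 10 among 57, above each anchor, and the others 12 to 24. *Otx2*_E114 headed the list for *Sox2*_E180, *Nodal*_E159 and *Nanog*_E074, with means over the 8 promoters of 0.39, 0.40 and 0.27 against the expectation. *Pou5f1*_E083 came next for *Sox2*_E180 and *Nanog*_E074, at 0.31 and 0.23, and *Tbx3*_E203 and *Tbx3*_E206 took the remaining places, at 0.22 to 0.28. For *Nanog*_E064 the order was *Lefty1*_E086 at 0.52, *Pou5f1*_E083 at 0.49 and *Otx2*_E108 at 0.38. Each of these means covers 7 or 8 promoters and differs widely among them, for *Nodal*_E159 with *Otx2*_E114 from 0.07 on *Ap1m1* to 0.76 on *Tbx3*.

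*Nanog*_E064 with *Pou5f1*_E083 (chr17:35505064-35505513, 0.5 kb from *Pou5f1*) was the only anchored pair called supra-additive on all 8 promoters. On *Tbx3* its boost index was 4.54, 4.18 and 3.96 in the 3 replicates, against 3.33 for *Nanog*_E064 and 1.37 for *Pou5f1*_E083 alone. The excess over the expectation was 0.80, 0.74 and 0.72 (mean 0.75 ± 0.04 SD, limma adjusted p = 0.00292), a narrower spread than that of the level. On *Lefty1* the excess was 0.77, 0.77 and 0.79, and on *Ap1m1* 0.19, 0.27 and 0.15 (limma adjusted p = 0.0229). Its smallest value was thus on *Ap1m1*, where it still lay above 0 in every replicate.

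*Otx2*_E114 (chr14:48664703-48665152) overlaps the *Otx2* gene and, by 93 bases, a RefSeq *Otx2* promoter window. It was a weak enhancer alone on the developmental promoters, between -0.19 on *Fgf5* and 0.94 on *Lefty1*. On *Ap1m1* it stood at 0.69, rank 10 among 57 enhancers and above each anchor. With the 4 anchors it was supra-additive in 25 of 32 tests and above the stronger single in 30, and no test was sub-additive. Of all anchored tests, 17.0% were supra-additive and 40.3% above the stronger single, and of all pairs tested 28.3% and 56%. *Otx2*_E114 was named for its high means against the expectation, so its counts restate that choice. With *Sox2*_E180 on *Lefty1* the replicates reached 5.20, 5.47 and 5.39 against 4.75 for the anchor alone. The excess over the expectation was 0.62 ± 0.07 there (limma adjusted p = 0.00339) and 0.11 ± 0.08 on *Ap1m1* (limma adjusted p = 0.139). The overlapping stretch, chr14:48665060-48665152 read on the minus strand, is shown because it is the end of this partner that overlaps an annotated promoter window. Its promoter activity was not tested. The reverse primer of the fragment starts at base 3 of the stretch, so the bases before it were not cloned. The stretch holds none of the 6 words searched above.
Otx2_E114 end: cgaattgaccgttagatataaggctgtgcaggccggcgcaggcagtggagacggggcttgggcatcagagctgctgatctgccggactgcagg

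*Pou5f1*_E083, *Tbx3*_E206 and *Lefty1*_E095 showed the same pattern, with 20 of 32, 19 of 32 and 17 of 28 tests supra-additive and 29, 27 and 22 above the stronger single. *Lefty1*_E095 had no single-enhancer value on *Fgf5* and was tested on 7 promoters. None of their tests was sub-additive, against 32.6% of all anchored tests. These partners too were picked by their values, so the counts are a description. On average over anchors and promoters, pairs with *Otx2*_E114, *Pou5f1*_E083, *Tbx3*_E206 and *Lefty1*_E095 reached 1.42-, 1.46-, 1.26- and 1.27-fold of the stronger single enhancer.

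On the *Ap1m1* promoter, more anchored pairs fell below the stronger single enhancer than rose above it. There 33 of 197 anchored pairs were called above the stronger single and 44 below it, against 37.6% and 12.5% of all pairs tested on *Ap1m1*. *Nanog*_E064 accounted for 29 of the 33 called above and 2 of those called below. The lowest pair relative to its partner was *Nanog*_E074 with *Klf2*_E046, which stood at 0.24 ± 0.34 where *Klf2*_E046 alone stood at 1.11, a change of -0.72 ± 0.42. It was followed by *Nodal*_E159 with *Nanog*_E090 at -0.71 ± 0.32 and *Nanog*_E074 with *Klf2*_E058 at -0.56 ± 0.15. These 3 pairs were below the stronger single enhancer with limma adjusted p of 0.0248, 0.0156 and 0.00424, respectively.

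The 3 pairs that rose furthest above the partner on *Ap1m1* all held *Nanog*_E064. With *Lefty1*_E095 the pair reached 1.00, 1.27 and 1.09 in the replicates, where the partner alone stood at 0.53 and the anchor at 0.32. The gain over the partner was 0.58 ± 0.10 for this pair, 0.48 ± 0.09 with *Otx2*_E114 and 0.47 ± 0.15 with *Nodal*_E157. All 3 passed both tests, with limma adjusted p of 0.00888, 0.0119 and 0.0434 against the additive expectation. Averaged over the anchors, pairs of *Pou5f1*_E081 stood at -0.35 relative to this partner alone on *Ap1m1*, with a boost index of 0.48 in pairs and 0.89 alone.

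The extremes of activity also involved few fragments. The highest anchored pair was *Sox2*_E180 with *Lefty1*_E094 on the *Sox2* promoter (4.81 ± 0.10) and on *Lefty1* (5.40 ± 0.17), *Nodal*_E159 with *Tbx3*_E203 on *Otx2* (2.43 ± 0.34), *Sox2*_E180 with *Otx2*_E114 on *Nanog* (2.60 ± 0.35) and *Nanog*_E064 with *Pou5f1*_E081 on *Tbx3* (4.92 ± 0.41). On *Ap1m1* it was *Nanog*_E064 with *Tbx3*_E203 at 1.22 ± 0.21. The highest pairs on *Klf2*, *Nanog*_E074 with *Nodal*_E156, and on *Fgf5*, *Sox2*_E180 with *Fgf5*_E038, rested on 1 combination each, so that no other order or orientation could be set beside them. *Pou5f1*_E084 was in the lowest pair on 5 promoters, at 3.35 on *Sox2*, 0.68 on *Otx2*, 3.22 on *Lefty1*, 0.87 on *Nanog* and -0.55 on *Ap1m1*. The lowest pairs on *Klf2*, *Fgf5* and *Tbx3* held *Pou5f1*_E079 at 0.39, *Lefty1*_E087 at 2.63 and *Fgf5*_E037 at 2.97.

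The additive expectation came closer to the anchored combinations than the multiplicative one, in which the fold changes of the single enhancers multiply. The median absolute log2 error was 0.25 for the additive and 1.23 for the multiplicative expectation on the *Sox2* promoter, 0.32 and 1.16 on *Lefty1*, 0.35 and 0.98 on *Tbx3* and 0.27 and 0.51 on *Klf2*. On *Ap1m1*, where both enhancers changed activity little, the errors were 0.22 and 0.24. The difference averaged -0.49 ± 0.01 and was below 0 on 8 of 8 promoters (exact sign-flip permutation test, two-sided p = 0.00781). Both expectations contain the single-enhancer medians that chose the anchors, and choosing high medians raises a product more than a sum. The direction was thus partly set by the choice, and this p-value cannot show a trait of the anchors. Each fragment was cloned in both positions downstream of the reporter. With the anchor in position 2 the median against the additive expectation was lower than in position 1 on 7 of 8 promoters, with a mean difference of -0.065 ± 0.0033 (exact sign-flip permutation test, two-sided p = 0.0312). The shift came mainly from *Fgf5* (-0.24 ± 0.07) and *Tbx3* (-0.15 ± 0.04), and without the *Fgf5* library the mean was -0.04 (exact p = 0.0625).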

How the data were processed

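The deposited table, per the labels from mESCs nucleofected with 8 plasmid libraries, gives for each combination and replicate the activity as a ratio that the authors computed by dividing barcode counts in cDNA by those in plasmid DNA. Per the study's methods, combinations needed at least 5 barcodes, barcodes at least 8 plasmid counts, and fragments were linked to barcodes by aligning reads with Bowtie2 to a custom reference made of the cloned fragments. Fragment coordinates are those of the selected windows, in mm10. The 73 sequenced samples comprise 48 cDNA samples (8 libraries, 3 replicates, 2 runs each), 16 plasmid and 9 inverse-PCR samples. The authors' baseline ratio per library was used only as an alternative.

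Combinations at 0 in any replicate were left out (491 of 110180). Fragments named as controls, not the table's class column, defined single-enhancer combinations. The baseline was the median of control-control combinations. The additive expectation was the median activity of each enhancer beside controls, in its own position, summed, minus the baseline. Replicates were combined by geometric mean. A pair's value was the mean over orders and orientations, tested with limma 3.58.1 (R 4.3.3, intercept, eBayes per library) over the 3 replicates, with Benjamini-Hochberg adjustment over all libraries at 5% FDR. Differences of medians were tested over 8 promoters by exact sign flips in Python 3.11.15. The scripts were checked on simulated data. SDs are over 3 replicates, and p-values over promoters measure the spread between libraries that share fragments.

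The 4 anchors, the 3 comparators and the tests were chosen with earlier results of these data known. Named pairs were the cross-locus pairs of 2 anchors, the 3 highest and 3 lowest partners of each anchor measured on at least 6 promoters, pairs called on at least 3 promoters, and the extremes of each promoter. *Pou5f1*_E084 and *Lefty1*_E095 were described across all anchors after their values were seen. Coordinates and primers are from the study's supplements, and promoter windows from RefSeq. Motifs within enhancers were not analysed here.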

Additional observations from a re-analysis of the deposited data

Results flagged for a closer look

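The direction of the departure from additivity differed between promoters. The median log2 observed over expected activity of anchored combinations lay below 0 in all 3 replicates on *Klf2* (-0.14), *Otx2* (-0.14), *Nanog* (-0.21) and *Ap1m1* (-0.13), and above 0 in all 3 replicates on *Fgf5* (0.20) and *Tbx3* (0.092). The difference between these promoters was not tested, and it was not particular to the anchors. Medians of other cross-locus pairs were 0.0044, -0.021, -0.015 and -0.0043 on *Klf2*, *Otx2*, *Nanog* and *Ap1m1*, against 0.66 on *Fgf5* and 0.31 on *Tbx3*. Pairs of *Pou5f1*_E081 without an anchor stood at -0.15, -0.16, -0.20 and -0.16, against 0.090 and 0.082.

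The *Fgf5* promoter stood apart from the other 7 in the difference between anchored and other cross-locus pairs (-0.46), and likewise for *Nodal*_E159 (-0.67), *Nanog*_E074 (-0.53) and *Nanog*_E064 (-0.32). It also stood apart in the comparison with *Pou5f1*_E081, *Klf2*_E058 and *Nanog*_E073 over shared partners (0.20). The gap to the nearest promoter exceeded the 95% limit of Dixon's ratio, which chance passes in about 1 of 20 groups. The *Fgf5* baseline rested on 23 control-control combinations, and *Nodal*_E159 alone on 8 combinations there. Their part in these values was not tested.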

How the results depend on the processing

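The differences of medians over promoters kept their direction and their side of the threshold under every alternative except without the *Fgf5* library, where *Nanog*_E064 minus other pairs turned from -0.03 to 0.0087 (neither passed) and position 2 minus position 1 fell short at -0.040 (exact permutation p = 0.0625). The cause was not tested. Between libraries, deviations of replicates with the same number had a mean r of 0.108, and ranged from -0.28 to 0.44, so the numbers were not taken as pairs; with the replicate block the mean difference of anchored and other pairs was -0.21, that with shared partners 0.051, that of the errors -0.47 and that of the positions -0.065, and no call changed. Counts of calls moved most. Leaving out 1 replicate gave 100 to 189 supra-additive and 306 to 432 sub-additive anchored pairs, 395 to 462 above and 130 to 184 below the stronger single; supra-additive calls were fewest without replicate 1 (104) and replicate 2 (100), sub-additive calls and calls below the stronger single without replicate 1, and calls above it without replicate 2. No called pair changed sign. At 1% FDR the counts were 91, 287, 364 and 98, and with one value per combination, which counts orders and orientations separately, 1557, 2527, 3440 and 1129. The authors' baseline and the counts without *Fgf5* were alternatives chosen after seeing the data. With at least 10 combinations behind each single-enhancer median, *Nodal*_E159 had no value on 1 promoter, which left 7. The planned motif count within enhancers was not run. Ratios without counts give no depth for a pair.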
